A study of Mus musculus with 2 samples.

Results

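Mitochondrial ribosomal protein genes were taken as all genes in the deposited expression tables whose symbol is Mrpl or Mrps followed by a number and at most 1 letter. There were 76 of them among 15113 genes, and each was listed in both libraries. RNA was sequenced from lung epithelial cells of C57BL/6 mice aged 6 to 8 weeks, sorted by FACS as CD45-negative and Sftpc-positive. The control library came from wild-type mice that carried no tumour. The tumour-bearing library came from mice given 1000000 luciferase-labelled LLC cells, the Lewis lung carcinoma line, by injection beneath the dorsal skin, from where the cells spread to the lung on their own. Each group held 1 library, and the sources used here do not give the number of mice behind it, so differences could not be set against replicates and p-values are not given.

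Mitochondria carry their own ribosome, the mitoribosome, which translates the few proteins encoded by mitochondrial DNA, all of them subunits of the respiratory chain and ATP synthase. Its ribosomal RNAs come from mitochondrial DNA, while every one of its proteins is encoded in the nucleus, made in the cytosol and imported. Some of these proteins have a counterpart in bacterial ribosomes, and others were added during mitochondrial evolution. In the lung, alveolar type 2 (AT2) cells, which make surfactant, are rich in mitochondria.

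Of the 76 genes, 49 encode proteins of the large subunit and 27 proteins of the small subunit. Mrps30 and Mrps18a carry small subunit names but are placed in the large subunit by structures of the mammalian particle, and they were counted there. In the large subunit 29 members have a bacterial counterpart and 20 are mitochondria-specific, and in the small subunit these numbers are 16 and 11. The members lie on 17 chromosomes. A further 7 subunit genes go by other symbols in the tables and were described apart.

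Start-site sequences are shown first for members on which the results below turn, since promoters of nuclear genes for mitochondrial proteins are known for sites of the factors NRF1, ETS proteins such as GABP, and YY1. Of the 76 members, 67 had a window of 300 bases in RefSeq's GRCm38.p6 table, from 250 before to 50 after a start, in 73 windows in all. Mrpl19 is named without a sequence. Each line gives the 100 bases before the start, 5′ to 3′ on the gene's strand, with matches to the NRF1 motif (the capitals of Mrpl9 with any base in the sixth place), CCGGAAG (ETS) or ATGGCGG (YY1), on either strand, in capitals. Mrps22 (chr9:98601680-98601779, minus strand), Mrps18b (chr17:35916441-35916540, minus strand), Mrpl9 (chr3:94443236-94443335, plus strand) and Mrpl30 (chr1:37890377-37890476, plus strand) were among the members higher in the tumour-bearing library. Mrps24 (chr11:5707702-5707801, minus strand) was among the lower ones, and Mrpl52 (chr14:54426809-54426908, plus strand) was the most abundant member.
Mrps22: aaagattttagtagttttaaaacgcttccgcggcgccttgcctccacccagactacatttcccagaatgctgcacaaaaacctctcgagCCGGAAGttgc
Mrps18b: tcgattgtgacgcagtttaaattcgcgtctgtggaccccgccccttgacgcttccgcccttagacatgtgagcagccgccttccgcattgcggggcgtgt
Mrpl9: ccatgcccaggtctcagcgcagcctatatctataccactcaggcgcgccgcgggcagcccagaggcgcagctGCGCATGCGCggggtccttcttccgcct
Mrpl30: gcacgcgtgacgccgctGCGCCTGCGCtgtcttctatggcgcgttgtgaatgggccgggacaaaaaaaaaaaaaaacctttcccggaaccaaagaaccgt
Mrps24: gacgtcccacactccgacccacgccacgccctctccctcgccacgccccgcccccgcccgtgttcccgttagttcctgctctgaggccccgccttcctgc
Mrpl52: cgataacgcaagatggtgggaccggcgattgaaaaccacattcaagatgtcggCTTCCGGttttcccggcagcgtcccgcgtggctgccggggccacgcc

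Mrps22 and Mrpl52 hold an ETS match in these 100 bases, and Mrpl9 and Mrpl30 an NRF1 match. Those of Mrpl52 and Mrpl30 are on the opposite strand. The stretches of Mrps18b and Mrps24 hold none of these 3 motifs, which says only that these letters are not there, and the full window of Mrps18b holds an ETS match 44 bases past the start. The RefSeq starts of Mrps22, Mrps18b and Mrps24 are not among the 61 windows whose start was found in a GENCODE M21 transcript. The Mrpl9 gene as a whole begins at base 94443154 of chromosome 3, so its printed stretch and NRF1 match lie inside the gene. In the 73 full windows, 24 (32.9%) held the ETS letters, against 17.3% of 12457 windows of the tested genes and 8.86% of all 32851 windows. The NRF1 letters were in 12 windows (16.4%), against 9.76% and 4.60%, and the YY1 letters in 13 (17.8%), against 7.88% and 4.05%. At least 1 of the 3 was in 54.8% of member windows, 30.3% of windows of tested genes and 15.5% of all windows. The E-box letters CACGTG (9.59% of member windows, 9.86% of windows of tested genes), CCAAT (41.1% and 37.2%), AAGGTCA of ERR receptors (5.48% and 3.36%) and the TATA letters TATAAA (6.85% and 7.31%) were searched as well. Among all member windows 1 pair of matches of different motifs overlapped, an E-box and an ERR match of Mrpl36. Members with an ETS match had a median log2 ratio of 0.30 over 24 genes and those without 0.11 over 43. For YY1 the medians were 0.51 over 13 and 0.12 over 54, and for NRF1 -0.10 over 12 and 0.18 over 55. These are descriptions of letters in windows and are not binding sites.

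**Figure D1:**
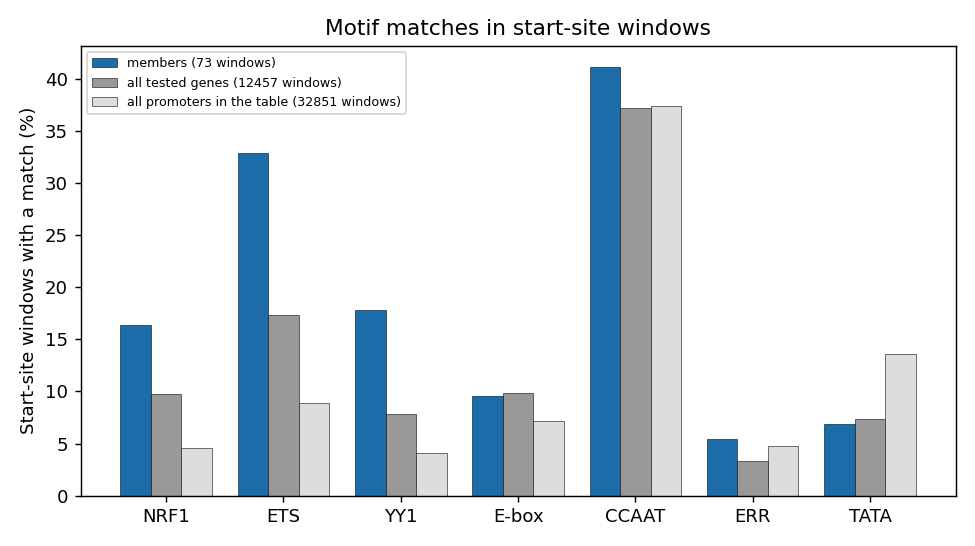
Share of start-site windows (y axis, percent) with at least 1 match to each of 7 motifs on either strand, for the 73 windows of mitochondrial ribosomal protein genes (blue), the 12457 windows of tested genes (grey) and all 32851 windows (light grey). The ETS bar reaches 32.9% for the members and 17.3% for the tested genes, while the E-box bars are at 9.59% and 9.86%.

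Values are RPKM, reads scaled by gene length and library total, which can be set side by side between genes. The RPKM values kept enough digits for whole read numbers to be estimated for most genes, with estimated totals of 5335352 reads in the control against 5387114 with a tumour. Sftpc, a gene of the sort gate, was listed at 94903 RPKM in the control against 54968 RPKM with a tumour, and Ptprc, which encodes CD45, had 12 and 2 reads. Markers of other lung cells differed between the libraries. All 6 fibroblast markers were at least 2-fold higher in the tumour-bearing library, with a summed level of 25 RPKM in the control and 422 RPKM there, and so were 5 of 6 endothelial markers (20.1 and 84.7 RPKM) and 2 of 4 macrophage and monocyte markers (12.7 and 46.7 RPKM), among which C1qb was at 0 in the control. The 6 AT1 markers summed to 1530 and 2409 RPKM, and the 8 AT2 markers to 119431 and 78922 RPKM. The 3 club markers summed to 31925 and 35949 RPKM, the 3 ciliated markers to 271 and 219 RPKM, the 4 erythroid markers to 16.2 and 25.5 RPKM, and the 2 leukocyte markers to 1.10 and 0.641 RPKM. Every cell type expresses mitoribosome genes, and the part of these markers' cells in the results below was not tested. In bulk RNA, fewer cells of a type and less RNA per cell cannot be told apart.

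Within each library the members spanned a wide range of levels. In the control library they ran from 0.610 RPKM for Mrps22 to 63.7 RPKM for Mrpl52, with a median of 14 RPKM. In the tumour-bearing library they ran from 0.888 RPKM for Mrpl19 to 70.3 RPKM for Mrpl52, with a median of 17.8 RPKM. The highest and the lowest member differed 104-fold in the control and 79.1-fold in the tumour-bearing library. All 76 together took 7215 reads in the control against 7724 with a tumour, 0.135% (exact 95% interval 0.132 to 0.138) and 0.143% (0.140 to 0.147) of the library totals. The ratio of these shares was 1.06, with a counting interval of 1.03 to 1.09. Recovered reads of all genes other than Sftpc made up 91.1% of the total in the control and 94.4% with a tumour. The median log2 ratio of all tested genes was 0.06, so a ratio slightly above 1 was not particular to the members. Single members had between 4 and 260 reads, and the median was 85 in the control against 99 with a tumour. Counting intervals here and below cover counting error only, since each group held 1 library. Reads amplified by PCR are not independent molecules, so these intervals can be too narrow.

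Mrpl52, Mrps21 and Mrpl20 were among the 5 most abundant members in both libraries. Mrpl52, a mitochondria-specific protein of the large subunit, was at 63.7 RPKM in the control against 70.3 RPKM with a tumour. Mrps21, the counterpart of bacterial S21, was at 54.5 and 44.8 RPKM, and Mrpl20, the counterpart of bacterial L20, at 42.6 and 47.5 RPKM. The counting intervals of all 3 ratios included 1. Mrpl48 and Mrpl32 stood in places 3 and 4 in the control and in places 18 and 14 in the tumour-bearing library. Mrpl32, the counterpart of bacterial L32, which is known to be matured by the m-AAA protease before it enters the ribosome, was at 47.3 RPKM in the control against 27.1 RPKM with a tumour, 1.75-fold lower (1.38 to 2.23). At the bottom of the range, 7 members stayed under 5 RPKM in both libraries. Mrps25, a small subunit protein, was at 1.94 and 1.62 RPKM, Mrpl35 at 1.78 and 2.96 RPKM, Mrpl11 at 2.67 and 3.16 RPKM and Mrpl15 at 3.82 and 2.07 RPKM. The intervals of Mrps25 and Mrpl11 included 1, that of Mrpl35 (1.08 to 2.61) lay above 1, and Mrpl15 was 1.85-fold lower (1.28 to 2.70). Some low members had long gene models, 6076 bases for Mrps25 and 5016 for Mrpl19 as implied by the RPKM values, and these lengths enter the RPKM. The order of the levels was similar in the libraries, with a Spearman correlation of 0.79 over the 76 genes. On log2(RPKM + 1), Pearson's r was 0.81 over the members and 0.91 over all 12288 tested genes, which span a far wider range of levels. The points of each library share its depth and preparation.

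**Figure D2:**
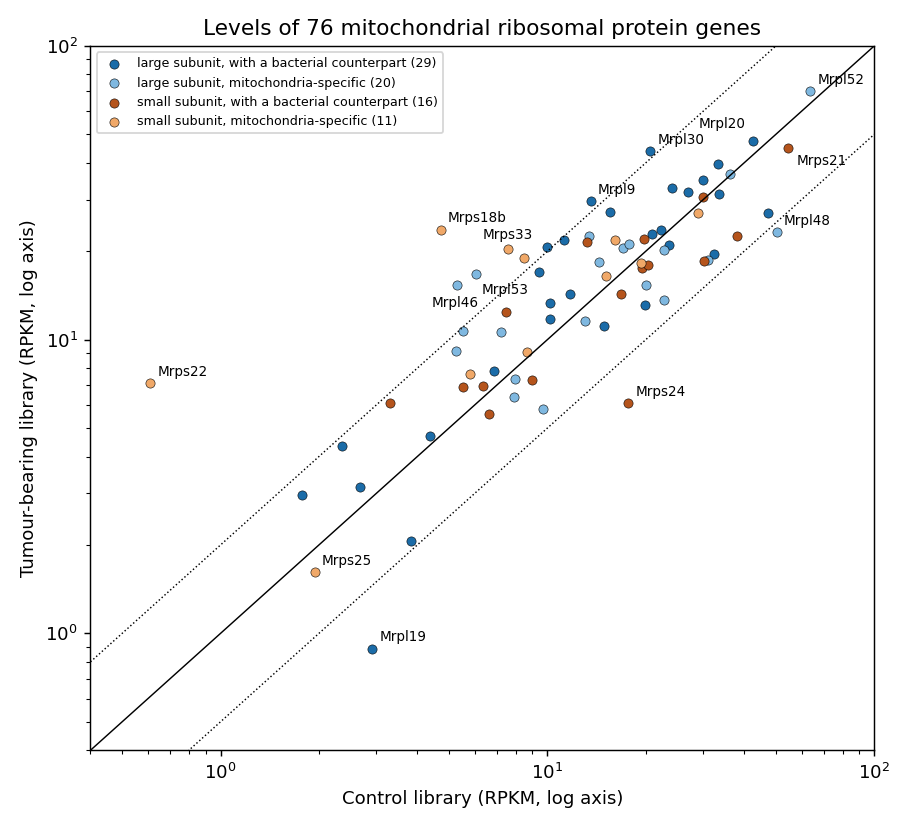
Level of each of the 76 members in the control library (x axis, RPKM, log scale) and the tumour-bearing library (y axis, RPKM, log scale), 1 point per gene, coloured by subunit and by whether the protein has a bacterial counterpart. The solid line marks equal levels and the dotted lines a 2-fold ratio of RPKM. Most points lie between the dotted lines, with Mrps22 (0.610 and 7.09 RPKM) and Mrps18b (4.72 and 23.7 RPKM) farthest above and Mrpl19 (2.91 and 0.888 RPKM) and Mrps24 (17.7 and 6.08 RPKM) farthest below.

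The comparison of the libraries bears on how lung epithelial cells differ in mice with a tumour, in a study of the niche formed ahead of metastasis. A member was called higher or lower when log2((tumour-bearing RPKM + 1)/(control RPKM + 1)) was at least 1 in size, a rule of size and no test. Folds with their intervals are printed from the RPKM values with nothing added, so a gene of low level can be past 2-fold there and still not be called. Of the 76 members, 8 (10.5%) were at least 2-fold higher in the tumour-bearing library, against 9.38% of 12288 tested genes, those that reached 1 RPKM in either library. Another 3 (3.95%) were at least 2-fold lower, against 6.53%, and 65 lay within 2-fold. The median log2 ratio was 0.14 over the members and 0.06 over all tested genes, and 47 members (61.8%) were above 0, against 53.8%. With the counting error of the reads taken into account, the interval of the ratio lay wholly above 1 for 22 members (28.9%, against 33.1% of 12283 genes with reads) and wholly below 1 for 14 (18.4%, against 26.5%). It included 1 for 40 members. Members had a median of 85 and 99 reads, against 125 and 132 over all tested genes. Fewer reads widen the intervals, so interval shares here and below are not like for like. By the 2-fold rule the shares of called members were near or under those of all genes, and the family as a whole was not set apart by them.

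**Figure D3:**
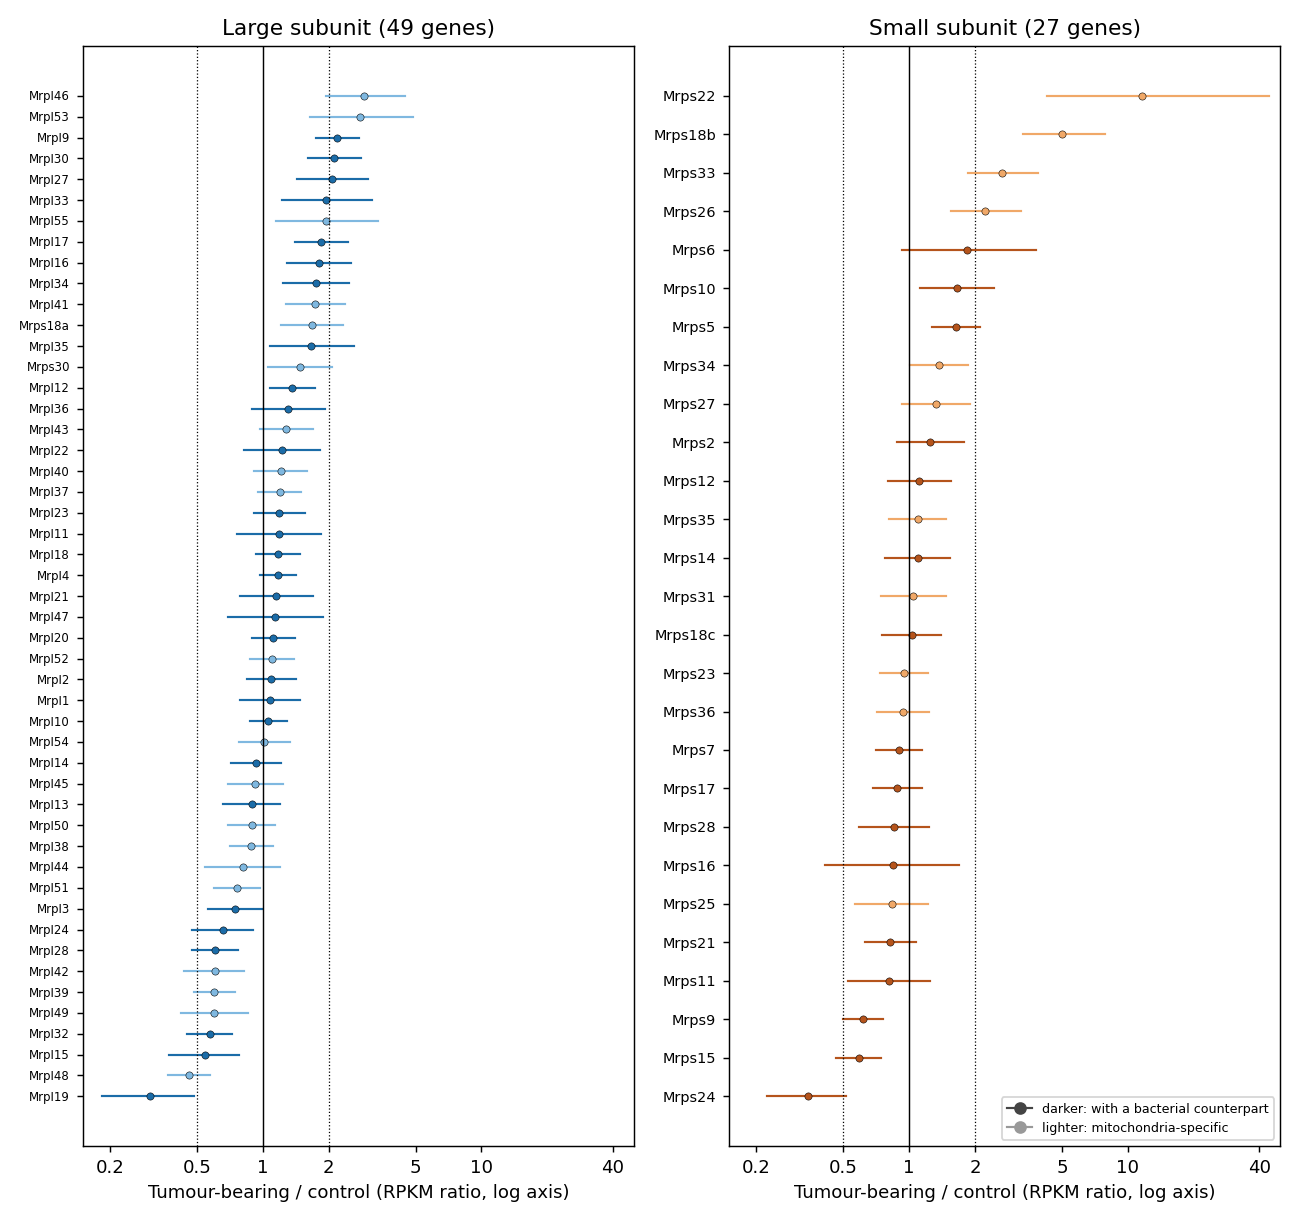
Ratio of tumour-bearing to control RPKM (x axis, log scale) of each member of the large subunit (left, 49 genes) and the small subunit (right, 27 genes), with bars for the exact 95% counting interval of the ratio of reads. The solid line marks a ratio of 1 and the dotted lines 2-fold. The intervals of Mrps22 (4.26 to 44.5) and Mrps18b (3.31 to 7.90) lie wholly above 2-fold and that of Mrpl19 (0.184 to 0.487) wholly below.

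Within the small subunit the mitochondria-specific proteins held all 4 members that were at least 2-fold higher. These 4 made up 36.4% of the 11 mitochondria-specific members, against 9.38% of all tested genes. Mrps22 (GeneID 64655, chromosome 9, 98588730 to 98601679 on mm10), whose loss in human patients impairs assembly of the small subunit, was at 0.610 RPKM in the control against 7.09 RPKM with a tumour. These values rest on 4 and 47 reads, a ratio of 11.6 with an interval of 4.26 to 44.5, and the low control number makes the size of the ratio uncertain. Mrps18b (GeneID 66973, chromosome 17, 35910380 to 35916440), 1 of 3 mammalian proteins related to bacterial S18 and counted here as mitochondria-specific, had 27 reads in the control against 137 with a tumour, or 4.72 and 23.7 RPKM. It was 5.03-fold higher (3.31 to 7.90) and stood in place 67 of the 76 levels in the control and place 16 in the tumour-bearing library. Mrps22 and Mrps18b were the members whose interval lay wholly past 2-fold higher, 2.63% of the family against 6.28% of genes with reads. Mrps33 (GeneID 14548) was at 7.60 and 20.3 RPKM, 2.67-fold higher (1.87 to 3.88). Mrps26 (GeneID 99045) was at 8.51 and 18.9 RPKM, 2.22-fold higher (1.55 to 3.23).

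Other mitochondria-specific members of the small subunit were close to equal in the libraries. Mrps23, Mrps25, Mrps31, Mrps35 and Mrps36 had log2 ratios from -0.17 to 0.12, with intervals that included 1. Mrps36 is related to a yeast subunit of 2-oxoglutarate dehydrogenase and may not belong to the ribosome, and it has 3 pseudogenes named after it in GENCODE M21 that could share its reads. Mrps27, a pentatricopeptide repeat protein, and Mrps34 had log2 ratios of 0.35 and 0.42. Of the 11 members of this class 8 were above 0 (72.7%, against 53.8% of all tested genes). The summed level was 117 RPKM in the control against 172 RPKM with a tumour. The median log2 ratio was 0.35, and the order-statistic interval of the median over genes ran from -0.09 to 2.11. Intervals over genes, here and below, are at the 95% level or above and take genes as independent. They come from 1 library per group, so they do not measure the difference between conditions.

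Small subunit proteins with a bacterial counterpart had 7 of 16 members above 0 (43.8%, against 53.8% of all tested genes). The median log2 ratio of the class was -0.16 (interval over genes -0.28 to 0.28). Its summed level was 298 RPKM in the control against 261 RPKM with a tumour. The difference between this class and the mitochondria-specific class was not tested. Mrps24 (GeneID 64660, chromosome 11, 5703982 to 5707701), the counterpart of bacterial S3, which lines the entry of the mRNA channel, was at 17.7 RPKM in the control against 6.08 RPKM with a tumour. With 95 and 33 reads it was 2.91-fold lower (1.94 to 4.46), with a log2 ratio of -1.40. That was the lowest among the members with 1 RPKM added, while with 0.1 RPKM added Mrpl19 was lower, at -1.61 against -1.52. The Mrps24 gene overlaps Urgcp on the same strand, and Urgcp was at 7.39 and 8.79 RPKM. Mrps15 and Mrps9, also core proteins, were 1.70-fold (1.34 to 2.15) and 1.63-fold (1.32 to 2.02) lower, from 38.1 to 22.5 RPKM and from 30.1 to 18.5 RPKM. Mrps5, the counterpart of bacterial S5, was 1.63-fold higher (1.27 to 2.11), at 13.2 and 21.5 RPKM, and Mrps10, with 45 and 75 reads, 1.65-fold higher (1.13 to 2.44). Mrps12, the counterpart of the decoding protein S12, was at 19.7 and 22 RPKM, with an interval that included 1, and so did those of Mrps2, Mrps6, Mrps7, Mrps11, Mrps14, Mrps16, Mrps17, Mrps18c, Mrps21 and Mrps28. Over all 27 small subunit members the median log2 ratio was 0.06. It was -0.04 with upper-quartile scaling and -0.00043 when the libraries were rescaled without Sftpc, so the median of the small subunit has no settled side.

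The relatives of bacterial S18 showed 3 different ratios. Mrps18a, in the large subunit, was at 13.4 RPKM in the control against 22.6 RPKM with a tumour, 1.68-fold higher (1.21 to 2.33). Mrps18b was 5.03-fold higher, and Mrps18c was at 29.9 and 30.7 RPKM, with a ratio of 1.03 (0.751 to 1.40). In the control library Mrps18c was the most abundant of the 3 and Mrps18b the least, while in the tumour-bearing library Mrps18a and Mrps18b were at 22.6 and 23.7 RPKM. The intervals of the Mrps18b ratio and the Mrps18c ratio do not overlap.

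In the large subunit, 4 members were called higher and 2 lower by the 2-fold rule, 8.16% and 4.08% of its members against 9.38% and 6.53% of all tested genes. Mrpl46 (GeneID 67308, chromosome 7, 78775341 to 78783089), a protein of the central protuberance, was at 5.27 RPKM in the control against 15.4 RPKM with a tumour, 2.91-fold higher (1.94 to 4.46). Mrpl48 (GeneID 52443, chromosome 7, 100545779 to 100608301), which also sits in the central protuberance, was at 50.3 and 23.2 RPKM, 2.17-fold lower (1.74 to 2.71). These members of 1 structural feature thus lay on opposite sides. Mrpl38 and Mrpl40, of the same protuberance, were at 22.7 and 20.1 RPKM and at 17.1 and 20.6 RPKM, with intervals that included 1. Mrpl53 (GeneID 68499), mitochondria-specific, had 20 and 56 reads and was 2.77-fold higher (1.64 to 4.88), and a gene model named Gm42688 overlaps it on the same strand. Mrpl48 overlaps Rab6a and has a processed pseudogene, Mrpl48-ps.

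Among large subunit proteins with a bacterial counterpart, Mrpl9 (GeneID 78523, chromosome 3, 94443154 to 94448708) was at 13.6 and 29.7 RPKM, 2.19-fold higher (1.75 to 2.75). Mrpl30 (GeneID 107734, chromosome 1, 37890477 to 37898338) was at 20.6 and 43.8 RPKM, 2.12-fold higher (1.61 to 2.83), and stood in place 23 in the control and place 4 in the tumour-bearing library. Mrpl27, at 9.96 and 20.6 RPKM, was just short of being called, with a log2 ratio of 0.98, although its fold without the added RPKM was 2.07 (1.43 to 3.04). Mrpl19 (GeneID 56284, chromosome 6, 81957826 to 81965949), which in bacteria lies at the interface of the subunits, had 78 reads in the control against 24 with a tumour, 2.91 and 0.888 RPKM. It was 3.28-fold lower (2.05 to 5.42), and it was the member whose interval lay wholly past 2-fold lower, 1.32% of the family against 3.73% of genes with reads. Its gene overlaps Gcfc2 on the other strand, which was at 1.00 and 0.605 RPKM. Mrpl12, a stalk protein that also binds the mitochondrial RNA polymerase, was 1.37-fold higher (1.08 to 1.74), at 24.1 and 33 RPKM, while its stalk partners Mrpl10 and Mrpl11 had intervals that included 1. Mrpl17, the counterpart of bacterial L17, was 1.85-fold higher (1.41 to 2.44), at 2.35 and 4.34 RPKM, and Mrpl24, the counterpart of L24, was 1.52-fold lower (1.11 to 2.10), at 19.9 and 13.1 RPKM. Mrpl45, a mitochondria-specific protein that ties the ribosome to the inner membrane, had an interval that included 1.

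The large subunit class with a bacterial counterpart had 21 of 29 members above 0 (72.4%, against 53.8% of all tested genes). The median log2 ratio of the class was 0.19. The interval of this median over genes, 0.08 to 0.43, does not measure the difference between conditions. The summed level was 509 RPKM in the control against 582 RPKM with a tumour. Intervals of 9 of the 29 members lay above 1 and those of 6 below 1, against 33.1% and 26.5% of genes with reads. The mitochondria-specific class had 11 of 20 members above 0 (55%) and a median of 0.08, which was -0.02 with upper-quartile scaling. Of its intervals, 6 lay above 1 and 5 below. Its members below 1 were Mrpl39, Mrpl42, Mrpl48, Mrpl49 and Mrpl51. Mrpl39 was at 22.7 and 13.6 RPKM, 1.66-fold lower (1.34 to 2.07), and Mrpl42 at 31 and 18.7 RPKM, 1.66-fold lower (1.21 to 2.28). Mrpl28, with a bacterial counterpart, was at 32.3 and 19.6 RPKM, 1.65-fold lower (1.30 to 2.10). The median over all 49 large subunit members was 0.18. The log2 ratio had a Spearman correlation of -0.43 with the control level over the 76 members, and the control level is also part of the ratio. With the mean level of the libraries it was -0.18 and with the implied gene length -0.09.

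The subunit genes under other symbols were 7 more components of the particle, and none was at least 2-fold apart. Dap3, a GTP-binding protein of the small subunit, was at 5.39 RPKM in the control against 2.93 RPKM with a tumour, 1.84-fold lower (1.37 to 2.48). Ptcd3, a pentatricopeptide repeat protein of the small subunit, was at 8.94 and 4.57 RPKM, 1.96-fold lower (1.44 to 2.69). Aurkaip1 was at 25.7 and 37.5 RPKM, 1.46-fold higher (1.19 to 1.78). Chchd1 was at 26 and 33.9 RPKM, Gadd45gip1 at 7.13 and 6.74 RPKM, Mrp63 (Mrpl57) at 5.09 and 4.64 RPKM, and Ict1 (Mrpl58), a peptidyl-tRNA hydrolase built into the large subunit, at 25.5 and 22.8 RPKM, with intervals that included 1. With these 7 added, the median log2 ratio of the family was 0.13, and 49 genes were above 0.

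Genes that build, supply or use the mitoribosome were read from lists of their own. Among 22 tested genes of assembly and ribosomal RNA modification, 16 were above 0 (72.7%, against 53.8% of all tested genes). The median log2 ratio of this list was 0.26, and 1 gene was called higher (4.55%, against 9.38%) and 0 lower. Intervals of 8 of the 22 lay above 1 and those of 3 below 1, against 33.1% and 26.5% of genes with reads. Mpv17l2, an inner membrane protein needed for assembly, was at 37.7 and 70.6 RPKM, 1.87-fold higher (1.57 to 2.24). Rbfa, which binds the small subunit ribosomal RNA, was at 10.5 and 17.9 RPKM, 1.71-fold higher (1.28 to 2.30). Nsun4, a methyltransferase of that RNA, and Dhx30, a helicase, were 1.37-fold (1.10 to 1.70) and 1.22-fold (1.04 to 1.42) higher. The gene past 2-fold was Rnmtl1, a methyltransferase of the large subunit RNA, with 2 and 14 reads. The genes with intervals below 1 were Fastkd2, 2.37-fold lower (1.51 to 3.79), Tfb1m, 2.09-fold lower (1.09 to 4.16), and Mtg1, 1.83-fold lower (1.05 to 3.28), all under 5 RPKM. These 4 genes were named after their values were seen.

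Translation factors lay mostly on the other side, with 11 of 13 below 0 and a median of -0.26. Above 0 were 15.4% of them, against 53.8% of all tested genes, and 1 factor was called lower (7.69%, against 6.53%). Intervals of 5 of the 13 lay below 1 and those of 0 above 1, against 26.5% and 33.1% of genes with reads. Taco1, which is needed for translation of the cytochrome oxidase subunit COX1, was at 9.71 and 3.30 RPKM, 2.94-fold lower (1.83 to 4.90). Tufm, the elongation factor EF-Tu of mitochondria, was at 22.8 and 14.1 RPKM, 1.62-fold lower (1.30 to 2.02). Mtif2, the initiation factor that joins the subunits, was 1.47-fold lower (1.06 to 2.05), and Oxa1l, the insertase that receives new peptides at the inner membrane, had an interval that included 1, at 19.4 and 17.1 RPKM. Genes of mitochondrial DNA expression and maintenance had 4 of 10 above 0 (40%, against 53.8%) and a median of -0.44. Only Tfb2m, with a log2 ratio of -1.003, was called lower on the scale with 1 RPKM added (10%, against 6.53%). Without the added RPKM Tfb2m, needed to start transcription, was 2.19-fold lower (1.64 to 2.94), Lrpprc, which stabilises mitochondrial mRNAs, 2.13-fold lower (1.69 to 2.69), and Polg, the DNA polymerase, 1.83-fold lower (1.57 to 2.13). Polrmt, the RNA polymerase, was at 3.99 and 5.92 RPKM, 1.49-fold higher. The signs of the medians of the assembly, factor and DNA expression lists were kept under the 5 scalings tried.

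Mitochondrial aminoacyl-tRNA synthetases had a median of 0.15, with 2 of 16 tested genes called higher (12.5%, against 9.38%) and 3 called lower (18.8%, against 6.53%). The lowest was Tars2, for threonine, named after its value was seen, with 80 and 18 reads, 4.49-fold lower (2.67 to 7.95). Sars2, for serine, had 9 and 52 reads, 5.72-fold higher (2.79 to 13.2), and Cars2, for cysteine, 81 and 28 reads, 2.92-fold lower (1.88 to 4.66). Rars2, for arginine, and Fars2, for phenylalanine, had 58 and 88 reads and 91 and 127 reads, with log2 ratios of 0.51 and 0.42. Genes encoded by mitochondrial DNA were not analysed here.

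Beside the 76 nuclear genes of the respiratory chain and ATP synthase and 76 cytosolic ribosomal protein genes, the mitoribosome genes had the widest spread. The standard deviation of the log2 ratio over genes was 0.67 for the mitoribosome, 0.44 for the respiratory chain and 0.23 for the cytosolic ribosome, and 0.78 over all tested genes. The median number of reads in the control library was 85, 245.5, 1503.5 and 125 in that order, so counting error differs between these lists and its part in the spread was not tested. The respiratory chain list had 62 genes above 0 (81.6%, against 53.8%), 5 called higher (6.58%, against 9.38%) and 0 called lower, with a median of 0.29. Intervals of 43 of its 76 genes lay above 1 and those of 5 below 1, against 33.1% and 26.5% of genes with reads. In it Ndufb2, a complex I subunit, had 7 and 54 reads, 7.64-fold higher (3.47 to 19.9), and the complex I genes Ndufa2 and Ndufa5 and the complex III gene Uqcrfs1 were 2.23-fold, 2.20-fold and 2.13-fold higher. In the cytosolic list 0 of 76 genes were called, although Rps27, with 7 and 15 reads, was 2.12-fold higher (0.815 to 6.15) without the added RPKM, and the median was 0.08, which was -0.02 with upper-quartile scaling. Among its genes at 5 RPKM or more, Rps28, Rpl37, Rps15a and Rps16 had the highest log2 ratios, 0.92, 0.74, 0.55 and 0.49.

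**Figure D4:**
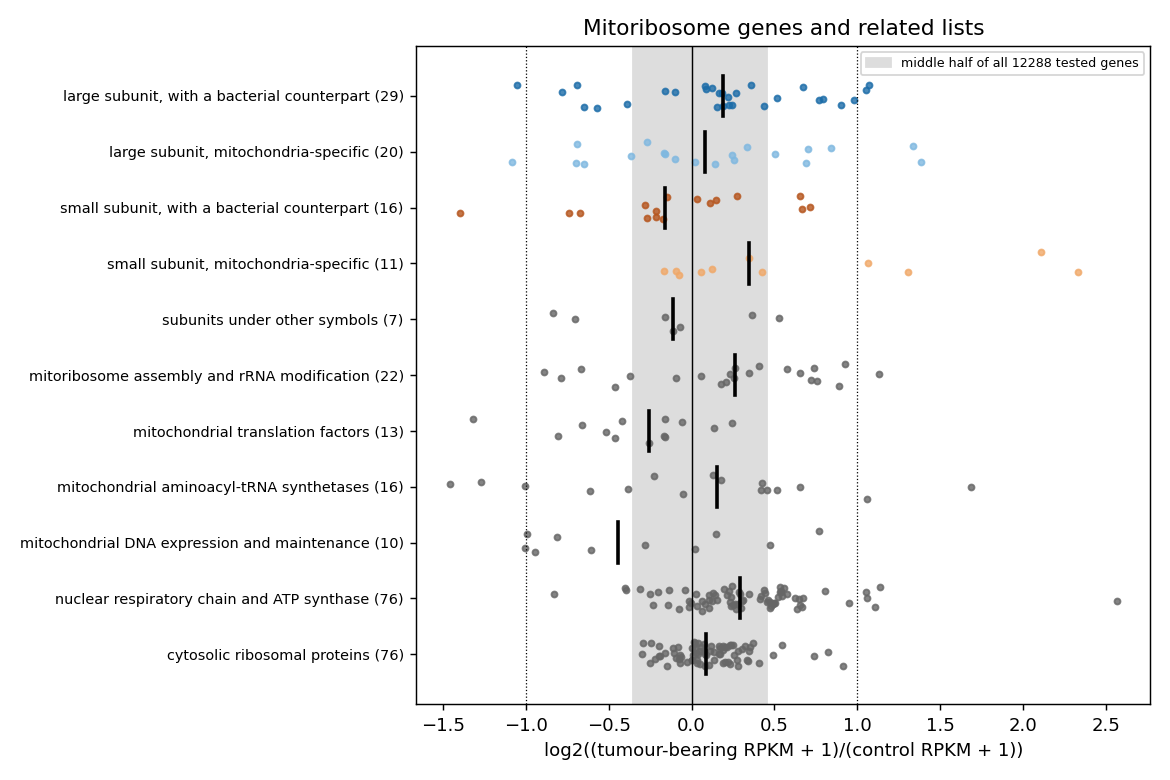
Log2 ratio on the RPKM + 1 scale (x axis) of each gene in the 4 classes of mitochondrial ribosomal protein genes and in 7 related lists (rows, with the number of tested genes), 1 point per gene. Black bars mark the median of each list, dotted lines 2-fold, and grey the middle part of all 12288 tested genes from the lower to the upper quartile, -0.36 to 0.45. Medians run from -0.44 for mitochondrial DNA expression to 0.35 for the mitochondria-specific small subunit proteins. Under upper-quartile scaling the medians of the mitochondria-specific large subunit class and of the cytosolic list lie below 0.

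Some members share a start region with a gene on the other strand. The share of all genes with such a neighbour was not counted. In GENCODE M21, on the GRCm38 assembly that mm10 denotes, 18 members had a protein-coding neighbour whose start lay at most 1000 bases upstream on the opposite strand or overlapped by at most 100 bases, and 17 of these neighbours passed the filter on low values. Their median log2 ratio was 0.03, and 7 of 17 lay on the same side of 0 as their member. By the 2-fold rule 3 of the 17 were called, against 9.38% of all tested genes higher and 6.53% lower. Mrps18b and Ppp1r10, which encodes a nuclear regulator of protein phosphatase 1, start 45 bases apart in GENCODE M21. Ppp1r10 was at 63.4 RPKM in the control against 20.5 RPKM with a tumour, a log2 ratio of -1.58, while that of Mrps18b was 2.11. The control library thus had more Ppp1r10 than Mrps18b per length, and the tumour-bearing library slightly more Mrps18b. Mrps12 and Sars2 start 172 bases apart, with log2 ratios of 0.15 and 1.68. Mrpl40 lies beside Hira, a histone chaperone gene, with 0.26 and 1.16. Mrpl32 and the proteasome gene Psma2 start 75 bases apart and had -0.78 and 0.14, and Mrpl49 and Fau, a cytosolic ribosomal protein gene, start 59 bases apart and had -0.65 and 0.43. Mrpl30 and Mitd1 were both above 0, at 1.05 and 0.65. Mrpl36 and the complex I gene Ndufs6 start 29 bases apart and were at 0.36 and 0.03.

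The sources used here do not give the strand setting of the counting, so reads from overlapping genes on opposite strands cannot be told apart. In GENCODE M21, 41 of the 76 members overlapped another annotated gene and 35 overlapped one on the opposite strand. The same shares over all genes were not counted. Mrpl46 and Mrps11 overlap each other by 413 bases on opposite strands in GENCODE M21, and their log2 ratios were 1.38 and -0.27. By RefSeq coordinates they do not overlap, since Mrpl46 ends at 78783089 and Mrps11 starts at 78783131. Mrps18b overlaps the antisense gene Gm16279, and Mrps22 the antisense gene Gm37637. Mrpl33, at 11.2 and 21.9 RPKM, lies opposite Rbks, which was at 3.76 RPKM in the control against 13.5 RPKM with a tumour. The part of such overlaps in the values was not tested.

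**Figure D5:**
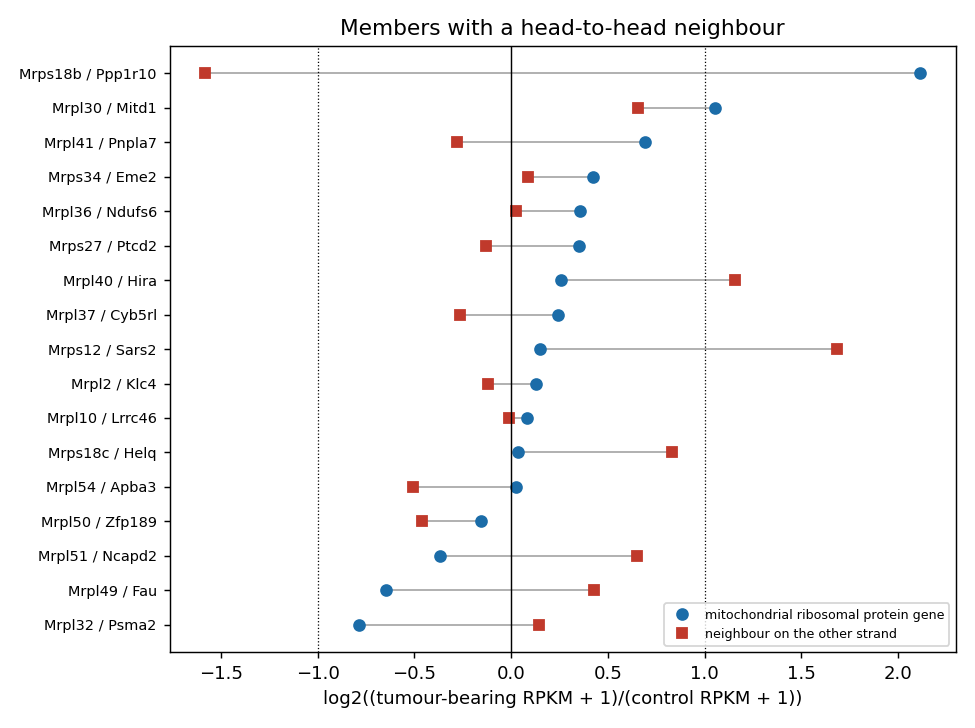
Log2 ratio on the RPKM + 1 scale (x axis) of 17 mitochondrial ribosomal protein genes (blue circles) and of the protein-coding neighbour that starts beside each on the other strand (red squares), 1 row per pair, joined by a grey line. Dotted lines mark 2-fold. Mrps18b (2.11) and Ppp1r10 (-1.58) are the farthest apart.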

How the data were processed

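RNA was sequenced from 2 libraries, 1 per group. Libraries were made from DNase-treated, oligo(dT)-selected RNA with random priming and PCR, per the labels' protocols. The submitters' processing notes name Trimmomatic and mm10. The sources used here do not give the aligner, counting tool, annotation, strand setting or pooling of mice. The authors deposited RPKM per gene, per the file headers. RPKM is relative to the library total, and Sftpc made up 18.6% of the summed RPKM in the control and 11.2% with a tumour.

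Genes at 1 RPKM or more in either library were tested, with 1 RPKM added. A value of 1 library has no replicate error. Whole read numbers were assigned to 15101 of 15113 genes, from the library totals that gave the most implied lengths equal to GENCODE M21 transcript lengths among rarely read genes, and from the order of rows. The number assigned to Sftpc was not relied on. With it, assigned reads summed to only 93.01% of the total in the control and 95.51% with a tumour. Sftpc was therefore left out of the 12283 genes with reads, and numbers assigned to other very abundant genes can be wrong too. Over all genes 12.01% of implied lengths equal a GENCODE length, 7 of them members'. The order was broken at 19 of 28189 row pairs and at 0 of 304 beside a member. The totals are estimates. Folds divide the RPKM values, and their 95% intervals are Clopper-Pearson intervals of the reads given their sum. Of the members, any could be named. Shown in full were those at least 2-fold apart, the 8 highest and 8 lowest log2 ratios at 5 RPKM or more, the 5 most and 5 least abundant by mean RPKM and the Mrps18 copies, and up to 4 genes per related list at 5 RPKM or more with the largest absolute log2 ratio. Members and lists were chosen with earlier results of these data known. Recovery and the size rule were tested on simulated data. These were built from the recovered lengths, reads and totals, so they cannot show that those are right. Python 3.11.15, numpy 2.4.6, pandas 2.3.3 and scipy 1.17.1 were used.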

Additional observations from a re-analysis of the deposited data

How the results depend on the processing

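No paired analysis was possible because each group holds 1 library, and leaving out a replicate was not possible for the same reason. By the 2-fold rule 8 of the 76 members were called higher and 3 lower. The counts were 3 and 1 with a pseudocount of 5, 19 and 11 at a 1.5-fold threshold, 2 and 0 at 4-fold, and 2 and 1 when the counting interval had to lie wholly past 2-fold. Upper-quartile scaling, which shifts all genes by 0.10 on the log2 scale, left 5 members at least 2-fold higher, without Mrpl9, Mrps26 and Mrpl30. The other alternatives tried (pseudocount of 0.1, a filter at 5 RPKM or none, trimmed-mean scaling, median centring, rescaling without Sftpc or without other cell types' markers, recovered reads, added subunit genes) gave 7 to 9 higher and 2 or 3 lower. The median of the small subunit, 0.06, turned to -0.0353 with upper-quartile scaling and to -0.000426 when rescaled without Sftpc. The family's median stayed above 0 under all alternatives run, from 0.04 with upper-quartile scaling to 0.22 without other cell types' markers. Depth limits single members: at a median of 85 and 99 reads, the counting interval included 1 for 40 of 76.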
